A study of Mus musculus with 5 samples.

Results

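The transcripts of 9 receptor tyrosine kinases were followed in SLAMseq libraries of cultured cardiac fibroblasts (CF): *Pdgfra*, *Pdgfrb*, *Ddr1*, *Ddr2*, *Fgfr1*, *Egfr*, *Met*, *Insr* and *Axl*. They were chosen by name, as receptors through which fibroblasts receive growth factor and matrix signals, and all 9 were found among the 20365 gene names of the tables. CF had been taken from hearts of healthy adult male C57Bl/6J wildtype mice by perfusion with collagenase and grown to confluency. The isolation described in the study includes shaking in collagenase to remove epicardial cells. It also includes magnetic depletion of endothelial and immune cells. Of the cultures, 3 (labeled replicates 1, 2 and 3) were then kept for 12 h with 0.1 mM of 4-thiouridine (S4U), and 2 (unlabeled replicates 1 and 2) were kept in parallel without it. The groups share sex, strain, culture and alkylation, and S4U is the only difference that the labels give. The study counts CF preparations as replicates, but the labels give numbers only, so p-values measure the spread between these libraries.

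Receptor tyrosine kinases are membrane proteins with a ligand-binding part outside the cell and a tyrosine kinase inside. Ligand binding brings receptors together, they phosphorylate each other, and adaptor proteins and enzymes that dock on the phosphotyrosines pass the signal on. In the heart, platelet-derived growth factor receptors mark fibroblasts and mural cells, and discoidin domain receptors are unusual in that they bind collagen, the main product of fibroblasts.

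In SLAMseq, S4U built into RNA during labeling is alkylated and later sequenced as C. The T>C conversion rate, the fraction of covered T positions read as C, rises with the part of a transcript pool made during labeling. The libraries were 3′ end libraries with unique molecular identifiers, and reads were counted on 3′ UTR intervals, of which a gene can have several. For each gene, the interval with the most reads in the labeled libraries was used, by mean deposited CPM, a read count scaled to the library. On these intervals, 506045 to 1576048 reads were counted in the labeled and 996143 and 1843033 in the unlabeled libraries, with labeled replicate 3 the shallowest. The deposited CPM divides by 7.58 to 28.9 times as many reads as were counted here. Transcript levels are therefore given as CPM relative to the counted reads, unless called deposited CPM. As a check of the cell type, 8 fibroblast markers summed to 33200, 33900 and 35800 CPM in the labeled and 25800 and 28700 CPM in the unlabeled libraries, without overlap, 6 endothelial markers to 92.9 to 188 CPM, 7 immune markers to 48.9 to 82.3 CPM, 7 mural markers to 76.1 to 176 CPM, 6 cardiomyocyte markers to 1.90 to 8.03 CPM and 4 epicardial markers to 3.81 to 5.93 CPM in the labeled and 0.543 and 1.00 CPM in the unlabeled libraries. The fibroblast sum includes *Col1a1* and *Col1a2*, at 13300 and 9300 CPM in labeled replicate 1 and 8780 and 6810 CPM in unlabeled replicate 1. *Ryr2*, *Msln* and *Krt19* had no read in any library, and *Vwf* and *Myh11* had none in the labeled libraries. In such bulk libraries, fewer cells of a type and less RNA per cell cannot be told apart.

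*Pdgfra*, the receptor for most platelet-derived growth factor dimers, had the highest mean level in CPM. Its interval lies in the last exon, in the 3′ UTR (ENSMUSG00000029231.17, GRCm39, plus strand, chr5:75355762-75358867). It held 827, 626 and 261 reads in labeled replicates 1, 2 and 3, against 1330 and 838 in the unlabeled libraries, replicate 1 first. The level was 525, 524 and 516 CPM in the labeled and 722 and 841 CPM in the unlabeled libraries. All labeled libraries lay below both unlabeled ones, and they differed little among themselves (521 ± 4.94 CPM, SD, n = 3). The log2 fold change of reads, labeled against unlabeled, was -0.51 (standard error 0.23), and it did not pass the test over all genes (edgeR quasi-likelihood test, adjusted p = 0.868).

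*Pdgfrb*, the receptor for the B and D chains, came next in mean CPM. Its interval lies on chromosome 18 of GRCm39, plus strand, from 61216456 to 61218139 (ENSMUSG00000024620.14), and 99.6% of it is annotated 3′ UTR. The level was 298, 475 and 561 CPM in the labeled and 317 and 496 CPM in the unlabeled libraries. The groups overlapped, and the library numbered 1 was the lowest of each group. The SD over the labeled libraries was 134 CPM around a mean of 445 CPM, many times that of *Pdgfra*. The log2 fold change was 0.20 (standard error 0.38, edgeR adjusted p = 1.00). The summed level of 7 mural markers, which stand for the other cell type known for *Pdgfrb*, was 76.1, 99.6 and 176 CPM in the labeled and 156 and 166 CPM in the unlabeled libraries, and its part in the level of *Pdgfrb* was not tested. The ratio of *Pdgfra* to *Pdgfrb* levels was 1.76, 1.10 and 0.919 in the labeled and 2.27 and 1.70 in the unlabeled libraries, so that labeled replicate 3 was the only library with more *Pdgfrb*.

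The discoidin domain receptors had like mean levels in the labeled libraries, 285 CPM for *Ddr2* and 297 CPM for *Ddr1*, but not in the unlabeled ones, with 417 and 253 CPM. *Ddr2*, the receptor of the pair known from mesenchymal cells, was counted on a 5550-base 3′ UTR interval (ENSMUSG00000026674.11, minus strand, chr1:169799874-169805423). It overlaps an exon of 3110045C21Rik on the other strand, and the 3′ end kit keeps the strand. Its level was 277, 332 and 245 CPM in the labeled and 382 and 453 CPM in the unlabeled libraries. All labeled libraries were below both unlabeled ones, with a log2 fold change of -0.48 (standard error 0.25, edgeR adjusted p = 0.921). *Ddr1*, the member known chiefly from epithelia, was counted on 811 bases of 3′ UTR (ENSMUSG00000003534.19, minus strand, chr17:35992459-35993269). Its level was 210.0, 275 and 407 CPM in the labeled and 223 and 283 CPM in the unlabeled libraries. These groups overlapped, the libraries numbered 1 were again the lowest, and the log2 fold change was 0.31 (standard error 0.36, edgeR adjusted p = 1.00). *Ddr2* exceeded *Ddr1* by a factor of 1.71 and 1.60 in the unlabeled libraries and by 1.32 and 1.21 in labeled replicates 1 and 2, whereas in labeled replicate 3 the ratio was 0.602.

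*Fgfr1*, a receptor for fibroblast growth factors, was counted on 1797 bases of 3′ UTR (ENSMUSG00000031565.21, plus strand, chr8:26063938-26065734). The level was 291, 340.0 and 338 CPM in the labeled and 369 and 429 CPM in the unlabeled libraries. On this scale the labeled libraries lay below both unlabeled ones. With the TMM factors of edgeR as divisor they overlapped, since labeled replicate 3 then had 358 CPM and unlabeled replicate 1 had 345 CPM. The log2 fold change was -0.23 (standard error 0.24, edgeR adjusted p = 1.00).

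*Egfr*, the receptor for epidermal growth factor, heparin-binding EGF and their relatives, was read at a lower level. Its 6303-base interval covers the 3′ UTR of the last exon (ENSMUSG00000020122.18, plus strand, chr11:16861856-16868158) and overlaps *Eldr* on the other strand, outside its exons. Reads numbered 151, 87 and 50 in the labeled and 296 and 139 in the unlabeled libraries. The level was 95.8, 72.8 and 98.8 CPM in the labeled and 161 and 140 CPM in the unlabeled libraries. Every labeled library was below both unlabeled ones. The log2 fold change of -0.68 (standard error 0.26) was the lowest of the 8 receptors tested by edgeR. Its unadjusted p of 0.0364 came with an adjusted p of 0.792 in the edgeR test over all genes, so that *Egfr* did not pass. The unadjusted p was above 0.05 without labeled replicate 2 and with reads summed over non-overlapping intervals (estimate -0.54), and it was 0.0737 in DESeq2. The estimate was -0.62 without unlabeled replicate 1 and -0.74 without unlabeled replicate 2. These fits leave 1 unlabeled library, so no p is given for them and they do not show that the unadjusted p held. With the replicate number as a block *Egfr* did pass, which is described with its limits under the dependence on processing.

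*Axl*, a receptor of the TAM family that binds GAS6, was counted on 2162 bases (ENSMUSG00000002602.18, minus strand, chr7:25455925-25458086), of which 71.8% are annotated 3′ UTR and the rest lies past the annotated end of the gene. A shorter interval inside it, wholly within the annotation, held 271, 411 and 131 of the 288, 425 and 133 reads in the labeled libraries. The level was 183, 356 and 263 CPM in the labeled and 151 and 364 CPM in the unlabeled libraries. Replicate 1 was the lowest of each group, the groups overlapped, and the log2 fold change was 0.12 (standard error 0.46, edgeR adjusted p = 1.00).

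*Insr*, the insulin receptor, was counted on 4747 bases (ENSMUSG00000005534.12, minus strand, chr8:3200922-3205668), of which 0.653% is annotated as coding and the rest as 3′ UTR. Reads numbered 89, 34 and 13 in the labeled and 111 and 27 in the unlabeled libraries. The level was 56.5, 28.5 and 25.7 CPM in the labeled and 60.2 and 27.1 CPM in the unlabeled libraries. Here the libraries numbered 1 were the highest of each group, and the groups overlapped (log2 fold change -0.14, standard error 0.47, edgeR adjusted p = 1.00). *Met*, the receptor for hepatocyte growth factor, was close to the limit of detection. On its 2157-base interval (ENSMUSG00000009376.17, plus strand, chr6:17571823-17573979), 12, 4 and 2 reads were counted in the labeled and 22 and 6 in the unlabeled libraries. Its level was 7.61, 3.35 and 3.95 CPM in the labeled and 11.9 and 6.02 CPM in the unlabeled libraries, and it had too few reads to enter the edgeR test. DESeq2, which tested it, gave a log2 fold change of -0.76 (standard error 0.95, adjusted p = 1.00).

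**Figure D1:**
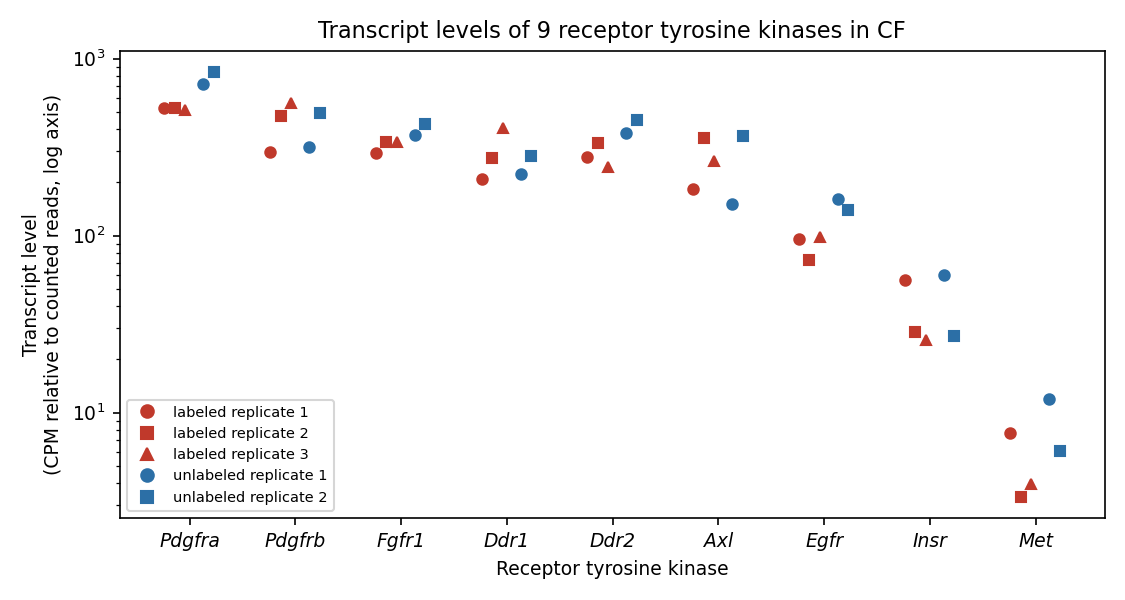
Transcript level of each receptor in each library, in CPM relative to counted reads on a log axis, with labeled libraries in red and unlabeled libraries in blue and 1 symbol per replicate number. *Pdgfra* had labeled libraries at 525, 524 and 516 CPM, below the unlabeled ones at 722 and 841 CPM, and *Met* lay at 3.35 to 11.9 CPM.

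The mean labeled level of the receptors spanned a factor of 105 in CPM, with a median of 285 CPM. In falling order the means were those of *Pdgfra*, *Pdgfrb*, *Fgfr1*, *Ddr1*, *Ddr2*, *Axl*, *Egfr*, *Insr* and *Met*. From *Pdgfra* down to *Axl*, each overlapped the next in its labeled libraries, while *Pdgfra*, at 516 CPM or more, stood clear of *Fgfr1* (340.0 CPM or less) and *Ddr1* (407 CPM or less). *Axl*, *Egfr*, *Insr* and *Met* followed each other without overlap, in 3 of 3 labeled libraries. A 3′ end library gives about the same number of tags for a long and a short transcript, so dividing by length does not correct the level. The level per kilobase of interval was computed as well, and its order depends on interval length. Per kilobase, the means were 367 CPM for *Ddr1*, 264 for *Pdgfrb*, 180.0 for *Fgfr1*, 168 for *Pdgfra*, 124 for *Axl*, 51.3 for *Ddr2*, 14.1 for *Egfr*, 7.77 for *Insr* and 2.30 for *Met*. *Egfr*, *Insr* and *Met* stayed last on both scales, while *Ddr1* moved to the first and *Pdgfra* to the fourth place.

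Newly made RNA was found for every receptor. All 9 receptors had a higher T>C conversion rate in all 3 labeled than in both unlabeled libraries, and the beta-binomial test on conversions and covered T positions called all 9 at p below 0.05, also after adjustment. Of 19240 intervals for which each library covered a T, this test called 94.6%, and 94.5% after adjustment, so a raised rate is what nearly all transcripts showed. The adjusted p ranged up to 0.00129 for *Met*. The median of the receptors' mean labeled rates was 0.0398, and the 3156 deeply covered intervals, those where each library covered 1000 or more T positions, had a median of 0.0390, with quartiles at 0.0349 and 0.0424.

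The 2 platelet-derived growth factor receptors had close rates. *Pdgfra* had a T>C conversion rate of 0.0419, 0.0401 and 0.0426 in labeled replicates 1, 2 and 3 and of 0.000517 and 0.000370 in the unlabeled libraries. *Pdgfrb* had 0.0431, 0.0432 and 0.0414 in the labeled and 0.000748 and 0.000273 in the unlabeled libraries. The means of 0.0416 ± 0.00127 and 0.0426 ± 0.000973 (SD, n = 3) differed by 0.00101, less than the SD of *Pdgfra* and slightly more than that of *Pdgfrb*, and their labeled libraries overlapped, on 6528 to 17720 covered T positions per labeled library for *Pdgfra* and 8543 to 16171 for *Pdgfrb*. They stood above 69.6% and 76.8% of the deeply covered intervals.

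*Fgfr1* had the highest rate among the 7 receptors covered that deeply. It was 0.0424, 0.0420 and 0.0476 in the labeled libraries (0.0440 ± 0.00312, SD, n = 3) against 0.000388 and 0.000110 in the unlabeled ones, above 85.6% of the deeply covered intervals. *Ddr2* had the lowest of the 7, at 0.0373, 0.0391 and 0.0337 in the labeled libraries (0.0367 ± 0.00273) and 0.00112 and 0.00269 in the unlabeled ones, above 33.6% of these intervals. In each labeled library the rate of *Fgfr1* was above that of *Ddr2*, and their ranges did not overlap. The mean of *Ddr1* lay between them, with 0.0351, 0.0401 and 0.0400 in the labeled libraries (0.0384 ± 0.00289), above 45.1% of these intervals, and its range overlapped that of *Ddr2*. In unlabeled replicate 1, 2 of the 10102 covered T positions of *Ddr1* were read as C, and in replicate 2 it was 0 of 7202, which allows a rate of up to 0.000417.

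*Egfr* had rates of 0.0386, 0.0356 and 0.0410 in the labeled and 0.000800 and 0.000314 in the unlabeled libraries. *Axl* had 0.0390, 0.0362 and 0.0444 in the labeled and 0.00325 and 0.000650 in the unlabeled libraries. For both, every labeled library lay above the unlabeled ones, and the labeled rates of *Axl* overlapped those of each receptor described above. Those of *Egfr* overlapped those of *Pdgfra*, *Ddr1* and *Ddr2* but lay below those of *Fgfr1* and *Pdgfrb*. *Insr* had 0.0353, 0.0354 and 0.0377 in the labeled libraries, close to each other although the last rested on 318 covered T positions (95% Wilson interval 0.0217 to 0.0648). Its unlabeled rates were 0.00204 and 0, where 0 of 651 allows up to 0.00461. *Met* had the highest mean rate, 0.0451 ± 0.0119 (SD, n = 3), but from 8 of 214, 3 of 77 and 2 of 34 covered T positions in the labeled libraries, and the Wilson interval of the last value runs from 0.0163 to 0.191. At this depth *Met* cannot be placed among the others. All intervals and limits cover counting error only.

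**Figure D2:**
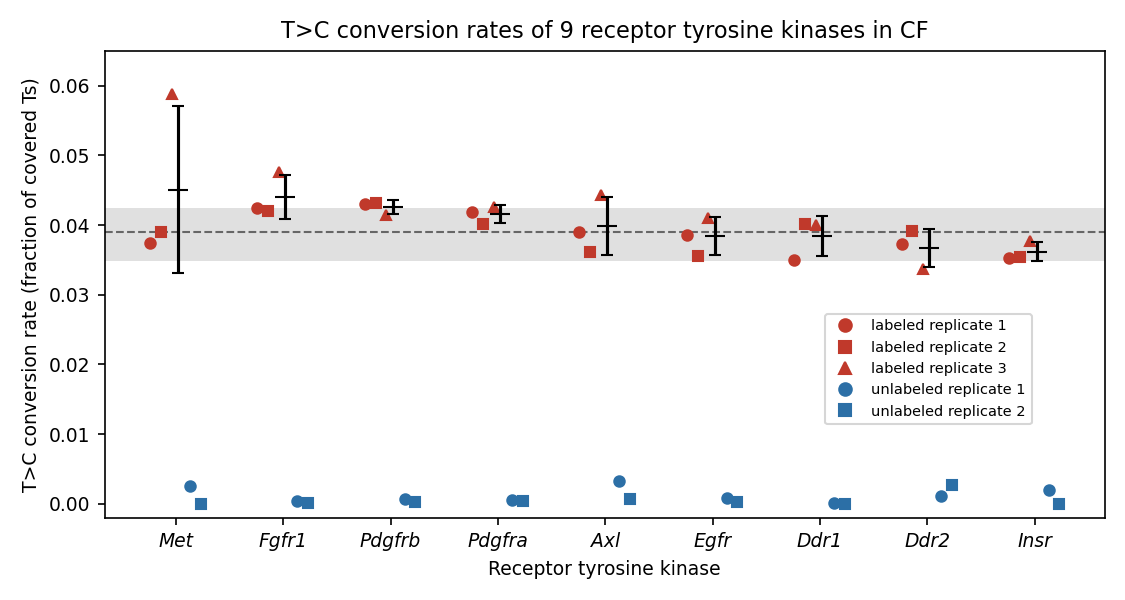
T>C conversion rate of each receptor in each library, as a fraction of covered T positions, with labeled libraries in red, unlabeled libraries in blue, and the labeled mean ± SD (n = 3) as a black bar. The grey band and dashed line mark the quartiles (0.0349 and 0.0424) and median (0.0390) of 3156 deeply covered intervals. All labeled values lie far above the unlabeled ones, and no neighbours in the order are separated.

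In the order of mean rates, each receptor overlapped the next in the labeled libraries. The share of reads with at least 1 conversion, which counts each read once however many T positions it covers, gave another order. It was 68.7% ± 2.48 (SD, n = 3) for *Pdgfrb*, whose reads covered 28.5 to 30.1 T positions in the labeled libraries, and 44.9% ± 6.18 for *Axl*, whose reads covered 15.1 to 20.4. For *Fgfr1* the share was 43.1%, 49.5% and 63.2% in labeled replicates 1, 2 and 3, beside 16.0, 19.4 and 21.4 covered T positions per read.

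Other intervals of the same genes gave a second reading of the rate for *Pdgfra* and *Egfr*. An upstream 3′ UTR interval of *Pdgfra* (chr5:75343854-75344792) ends where the annotation ends the protein-coding transcript Pdgfra-205, which stops far short of the full gene. It held 85, 66 and 23 reads in the labeled and 100 and 54 in the unlabeled libraries, between 8.10% and 9.54% of the reads of the gene in the labeled and 6.99% and 6.05% in the unlabeled ones. Its rate of 0.0453, 0.0366 and 0.0481 in the labeled libraries overlapped that of the last exon. An upstream interval of *Egfr* (chr11:16837229-16837658, 430 bases of annotated UTR) had a lower rate than the last exon in 3 of 3 labeled libraries, at 0.0148, 0.00794 and 0.0174 against 0.0386, 0.0356 and 0.0410. These came from 4 of 271, 2 of 252 and 6 of 344 covered T positions, with 0 of 377 and 0 of 243 in the unlabeled libraries. The Wilson intervals of the upstream and last exon rates overlapped in each labeled library but by little in replicate 2 (0.00218 to 0.0285 against 0.0281 to 0.0449). Its 13, 10 and 15 reads in the labeled libraries were 7.93%, 10.3% and 23.1% of the reads of *Egfr*, against 5.43% and 6.71% in the unlabeled libraries. These intervals were singled out after their values were seen. The other intervals of *Pdgfrb* had no read, and those of *Ddr2* and *Axl* lie inside or nearly match the ones described.

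**Figure D3:**
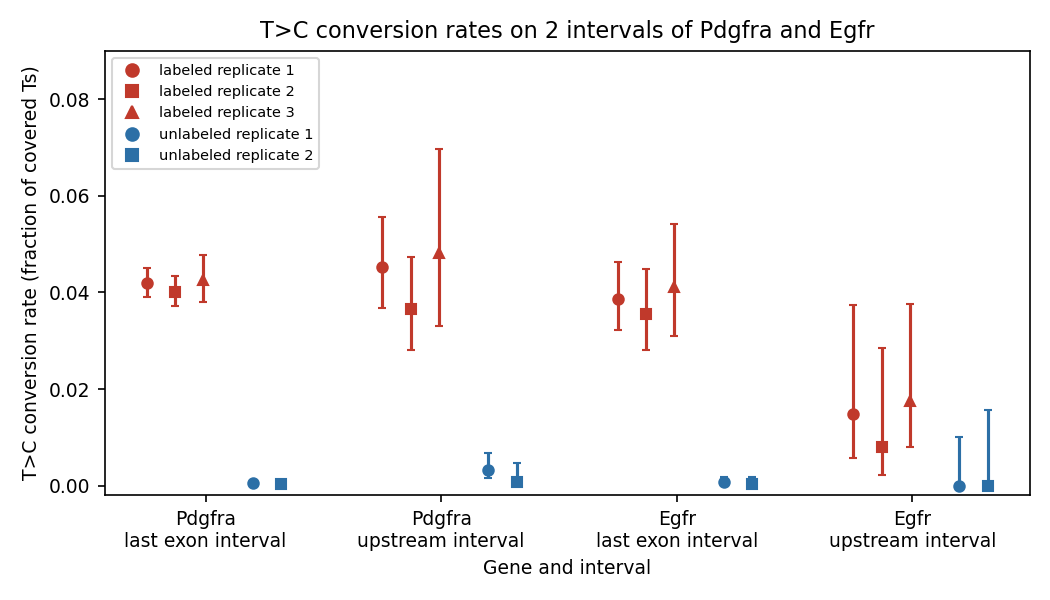
T>C conversion rate, as a fraction of covered T positions, on the last exon interval and on the upstream interval of *Pdgfra* and *Egfr* in each library, with 95% Wilson intervals as bars. The upstream interval of *Egfr* sits at 0.00794 to 0.0174 in the labeled libraries and the last exon at 0.0356 to 0.0410, whereas both intervals of *Pdgfra* lie between 0.0366 and 0.0481.

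Whether the level of these transcripts differed between cultures with and without S4U was asked with the read counts. Of the 9 receptors, 8 had enough reads, and 0 passed edgeR's test at an adjusted p below 0.05, where 0.0% of all 9807 genes tested passed. At an unadjusted p below 0.05, 1 of 8 (*Egfr*) was lower, and 3.12% of all genes were lower and 2.84% higher. DESeq2 called none of the 9, and 0.0976% of 14337 genes. The estimates were below 0 for 5 of the 8 tested (*Egfr*, *Pdgfra*, *Ddr2*, *Fgfr1* and *Insr*) and above 0 for *Ddr1*, *Pdgfrb* and *Axl*, with a median of -0.19 beside 0.02 over all genes. For *Pdgfrb*, *Axl* and *Insr* the sign changed when 1 library was left out. In 4 receptors (*Pdgfra*, *Ddr2*, *Fgfr1* and *Egfr*) every labeled library lay below both unlabeled ones, as did 13.1% of all genes tested. None lay wholly above, as did 8.20% of all genes. The summed fibroblast and epicardial markers lay above in every labeled library, and their part in these levels was not tested. Of the 8 fibroblast markers, 1 (*Col1a1*) was higher at an unadjusted p below 0.05 in edgeR, and 0 after adjustment. The epicardial sum was 5.93 CPM or less, and 0 of the 4 epicardial markers had enough reads for edgeR. With TMM factors, *Pdgfra*, *Ddr2* and *Egfr* remained below, as did 11.1% of all genes. In edgeR with the replicate number as a block, *Egfr* and *Pdgfra* passed at an adjusted p below 0.05, as did 11.7% of all genes. No source ties equal numbers to one culture or preparation.

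**Figure D4:**
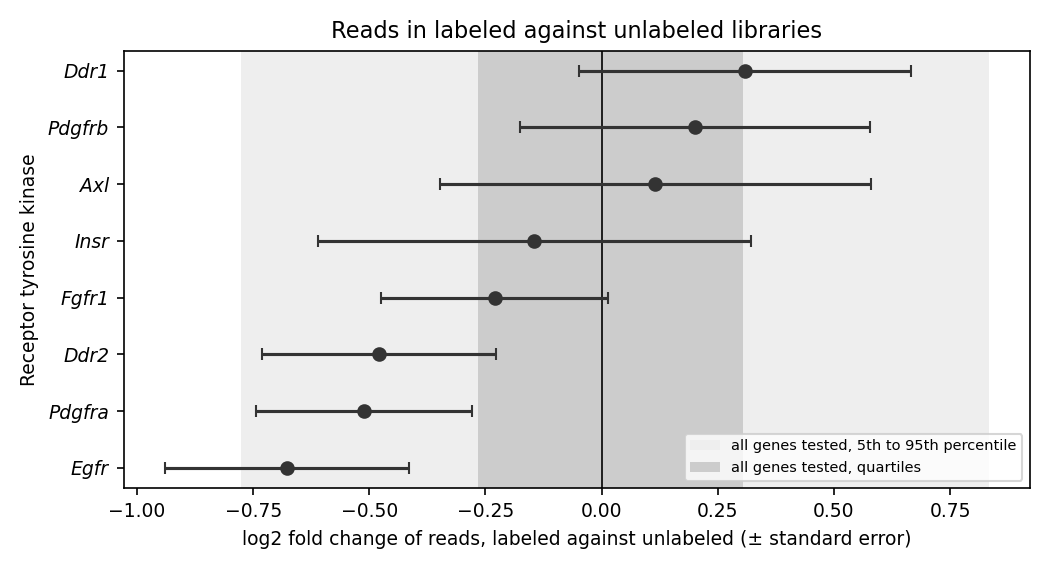
log2 fold change of reads, labeled against unlabeled libraries, with its standard error for the 8 receptors tested by edgeR, and the quartiles (dark grey) and 5th to 95th percentiles (light grey) of all 9807 genes tested. *Egfr* at -0.68, *Pdgfra* at -0.51 and *Ddr2* at -0.48 lie below the lower quartile of -0.27 and above the 5th percentile of -0.78.

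Among 58 receptor tyrosine kinases, the 9 held 56.9%, 67.7% and 65.8% of the reads in the labeled and 62.1% and 71.6% in the unlabeled libraries. Of the other 49, 10 had no read in any library, among them *Erbb3*, *Erbb4*, *Flt3* and *Alk*. *Ryk*, a WNT-binding receptor with an inactive kinase, was the highest of the others at 644, 298 and 350 CPM in the labeled and 593 and 286 CPM in the unlabeled libraries. Its libraries numbered 1 were the highest of each group, opposite to *Pdgfrb*. *Igf1r*, the close relative of *Insr*, had 175, 204 and 273 CPM in the labeled libraries and a T>C rate of 0.0453 ± 0.00332 (SD, n = 3), against 0.0410 ± 0.00237 for *Ryk*. In each labeled library *Igf1r* had more CPM and a higher rate than *Insr*. Per kilobase *Igf1r* had a mean of 29.9 CPM and *Insr* of 7.77 CPM. *Epha4* followed *Igf1r* among the others, at 63.8 ± 17.0 CPM (SD, n = 3). No other receptor passed edgeR's test of reads without a block, of 25 tested. At an unadjusted p below 0.05, 2 were higher and none lower, beside 2.84% and 3.12% of all genes. They were *Epha2*, with 23, 12 and 11 reads in the labeled and 4 and 3 in the unlabeled libraries, and *Ret*, the receptor for GDNF family ligands, with 16, 16 and 6 against 1 and 0. Both were chosen after their values were seen.

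**Figure D5:**
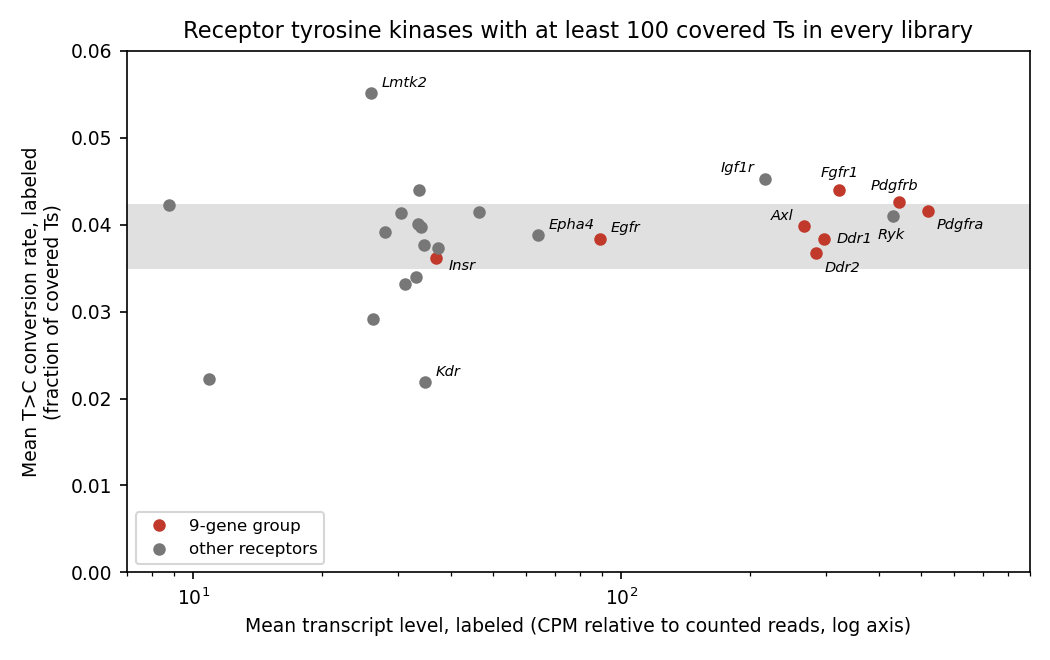
Mean labeled T>C conversion rate, as a fraction of covered T positions, against mean labeled transcript level, in CPM relative to counted reads on a log axis, for the 26 receptor tyrosine kinases with 100 or more covered T positions per library (8 of the 9 receptors in red, 18 others in grey). The grey band marks the quartiles (0.0349 and 0.0424) of 3156 deeply covered intervals, and most receptors lie in or near it.

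The ligands of these receptors showed a wider range of rates than the receptors. Of 31 ligand genes, 5 had no read and 16 were tested for reads, with 0 passing at an adjusted p below 0.05 in edgeR. At an unadjusted p below 0.05, 4 were higher (*Col1a1*, *Fgf2*, *Hbegf* and *Ereg*) and 2 lower (*Hgf* and *Pdgfd*), beside 2.84% and 3.12% of all genes. The collagen chains that discoidin receptors bind were the highest in the labeled libraries, where *Col1a1* had a mean of 13000 CPM, *Col1a2* of 11000 CPM and *Col3a1* of 8340 CPM. Their T>C rates of 0.0259 ± 0.00199, 0.0200 ± 0.000741 and 0.0151 ± 0.00143 (SD, n = 3) lay below the rates of *Ddr1* and *Ddr2* in every labeled library. *Fgf2*, a ligand of *Fgfr1*, had the highest rate of the ligands covered that deeply, 0.0515 ± 0.00979. Its level was 169, 166 and 164 CPM in the labeled and 112 and 114 CPM in the unlabeled libraries. *Hbegf*, a ligand of *Egfr*, had 49.5, 70.3 and 85.0 CPM in the labeled and 10.9 and 18.1 CPM in the unlabeled libraries. Its log2 fold change was 2.33 (standard error 0.44), with an adjusted p of 0.531 in edgeR and of 0.0150 in DESeq2. *Ereg*, also a ligand of *Egfr*, had an estimate of 1.11 (edgeR adjusted p = 0.779). *Hgf*, the ligand of *Met*, had 35.5, 23.4 and 25.7 CPM in the labeled and 67.8 and 52.2 CPM in the unlabeled libraries (edgeR adjusted p = 0.725), and *Pdgfd*, a ligand of *Pdgfrb*, had an estimate of -0.97 (edgeR adjusted p = 0.728). *Hbegf*, *Ereg*, *Hgf* and *Pdgfd* were chosen after their values were seen.

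Of 26 adaptors and proximal enzymes, 23 were tested for reads, 0 passed at an adjusted p below 0.05 in edgeR, and at an unadjusted p below 0.05 none was higher and 1 lower (*Vav3*). The highest levels of this list were those of *Pik3ca*, the catalytic subunit of PI3 kinase alpha, at 256 ± 64.1 CPM, *Crk* at 204 ± 33.2 CPM and *Grb2*, the adaptor that links receptors to SOS, at 198 ± 25.1 CPM (SD, n = 3). *Grb2* had the lowest rate of this list, 0.0345 ± 0.00222, and the adaptor *Crkl* the highest, 0.0456 ± 0.00315, among the 7 covered that deeply. Of 17 negative regulators and sheddases, 16 were tested and 0 passed. At an unadjusted p below 0.05, 1 was higher (*Dok1*) and 2 lower (*Adam17* and *Grb14*), named with *Vav3* after their values were seen. Over all genes, 2.84% were higher and 3.12% lower at this threshold. *Adam17*, which sheds EGF receptor ligands from the cell surface, had 278, 209 and 196 CPM in the labeled and 396 and 338 CPM in the unlabeled libraries (log2 fold change -0.61, edgeR adjusted p = 0.811). *Grb10*, an adaptor that restrains insulin receptor signaling, had 206 ± 3.51 CPM and *Adam10* had 152 ± 47.9 CPM. Among the 6 of this list covered that deeply, *Adam10* had the highest rate at 0.0437 ± 0.00526. The lowest of these 6 was that of *Ptpn1*, the phosphatase PTP1B that acts on the insulin receptor, at 0.0309 ± 0.00387. The median log2 fold change was -0.08 for the other receptors, 0.16 for the ligands, -0.06 for the adaptors and 0.16 for the negative regulators, beside 0.02 over all genes.

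Among 933 genes with at least 100 reads in every library, the pattern over the 5 libraries most like that of *Pdgfra* was that of *Grb10*. Likeness was the root mean square difference of log2(CPM + 1) after centring on the mean of each gene, which was 0.03 for *Grb10* and 0.07 for *Lpl*, with a median of 0.43 over all these genes. *Grb10* had 207, 203 and 209 CPM in the labeled and 294 and 325 CPM in the unlabeled libraries, with all labeled libraries close together and below both unlabeled ones, as for *Pdgfra*. For *Pdgfrb* the nearest genes were *Bzw1* at 0.05 and *Cnn3* at 0.06, which also were lowest in the libraries numbered 1. *Cnn3*, a calponin of the actin cytoskeleton, had 289, 513 and 583 CPM in the labeled and 322 and 527 CPM in the unlabeled libraries.

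The ends of the intervals were searched, on the transcript strand only, for the poly(A) signals AATAAA and ATTAAA in the last 50 bases. *Pdgfra*, *Ddr1*, *Egfr*, *Met*, *Insr* and *Axl* hold AATAAA there, as do 66.6% of the 8487 intervals searched (1 per gene, 500 or more bases, a covered T in each library), and *Pdgfrb*, *Ddr2* and *Insr* hold ATTAAA, as do 20.6%. *Fgfr1* holds neither in this window. In the last 500 bases, 7 of 9 hold the AU-rich motif ATTTA, as do 59.2% of the intervals, and *Pdgfra*, *Ddr2* and *Met* hold the Pumilio motif TGTANATA, as do 15.0%. *Ddr1* and *Axl* lack ATTTA in the whole interval. Matches of ATTTA and of the poly(A) signals can share bases.

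The seed of the miR-34 family was searched as well, because MET and PDGFRA are reported targets of miR-34a, so it was not chosen independently of these receptors. The site CACTGCC, complementary to bases 2 to 8 of the miRNA, occurs once in the whole interval of *Pdgfra* and in 2 places in that of *Met*. Of intervals within 20% of its length, 29.9% hold the site for *Pdgfra* and 23.5% for *Met*. In the last 500 bases, 2 of 9 hold it, as do 5.86% of the intervals. A match is a description and not a measured binding site, and the libraries do not measure miRNAs. The mature sequences are from RefSeq (table of build GRCm38.p6) with the seed in capitals, and the sites are 30 bases of GRCm39 read along the transcript with the site in capitals. Sites and whole-interval matches are given for these 2 receptors only.
mmu-miR-34a-5p: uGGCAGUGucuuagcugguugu
mmu-miR-34b-5p: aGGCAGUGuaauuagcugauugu
*Pdgfra*, plus strand, chr5:75358572-75358601: tatgacaagctgtatCACTGCCtttgttta
*Met*, plus strand, chr6:17571884-17571913: ttccccaacagttctCACTGCCtggccttt
*Met*, plus strand, chr6:17573859-17573888: gaattagatatttgtCACTGCCtatacctg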

How the data were processed

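SLAMseq libraries of CF were grouped by their labels into 3 labeled and 2 unlabeled. The authors extracted unique molecular identifiers and removed duplicates with UMI-tools, mapped reads to mm39 with SLAM-DUNK 0.4.3, and deposited, for each 3′ UTR interval, counts of reads, of reads with a conversion, of covered T positions and of conversions. The deposited conversion rate is a fraction, conversions divided by covered T positions, and the deposited CPM is reads scaled by 1 number per library. The origin of the intervals is not given in the sources used here. SLAM-DUNK listed 0 multimapped reads on the intervals of the receptors.

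Repeated rows were used once. T contents of 40380 of 40380 intervals matched GRCm39, whose annotation gave exons and overlapping genes. Rates were tested, two-sided, by likelihood ratio under a beta-binomial model (1 overdispersion for both groups) on 19240 intervals for which each library covered a T, and reads with edgeR (quasi-likelihood, TMM, filterByExpr, Benjamini-Hochberg) on 1 interval per gene. On simulated data, the beta-binomial test called 96.5% of 200 changed intervals and 7.11% of the unchanged ones among 3000, and edgeR recovered 103 of 200 genes given a log2 change of 2 among 9523, with 7 false calls. Replicates differed by more than the noise of sampling (chi-square per degree of freedom 2.04 to 16.6).

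Results for some items are not reported here. The receptors and the gene lists were chosen with earlier results of these data known. Named genes were all receptors and, from each list, every gene past the adjusted test of reads (none passed), the 3 with the highest level, and those with the highest and lowest rate at 1000 or more covered T positions in every library. Genes named for an unadjusted p are outside this rule. Alternatives were other coverage minimums, limma on log odds (pseudocount 0.5), DESeq2, other size factors and filters, summed or other intervals, the replicate number as a block, and each library left out. The software was DESeq2 1.42.0, limma 3.58.1 and edgeR 4.0.16 in R 4.3.3, and scipy 1.17.1, numba 0.67.0, pandas 2.3.3, pysam 0.24.0, matplotlib 3.10.9 and numpy 2.4.6 in Python 3.11.15.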

Additional observations from a re-analysis of the deposited data

How the results depend on the processing

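All receptors with enough covered T positions kept a raised rate under each alternative run, 8 of 8 at 100 or more covered T positions in every library, 7 of 7 at 1000 or more, and 4 of 4 with a next interval that had covered T positions. Each of these 4 next intervals (*Axl*, *Ddr2*, *Egfr* and *Pdgfra*) lies inside the first and shares its reads, so this is not an independent check. Over all intervals, 18200 raised became 3154 at 1000 or more covered T positions and 10641 with 1 interval per gene, because fewer were tested. The median rate of the receptors was 0.0383 after subtracting the unlabeled rate, 0.565 as the share of converted reads, and 0.0382 to 0.0417 with a labeled library left out. The median level was 21.7 as deposited CPM and 124 per kilobase, and 261 to 309 with a labeled library left out.

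For reads, DESeq2 called 14 genes, 10 higher and 4 lower, none a receptor, and the cause was not tested. The labels number libraries 1 and 2 in both groups and no source ties equal numbers to one culture or preparation. With the replicate block, which leaves 1 residual degree of freedom, 1146 of 9807 genes passed in edgeR, or 11.7% (528 higher, 618 lower), among them 2 receptors, *Egfr* (-0.77, adjusted p = 0.000427) and *Pdgfra* (-0.52, adjusted p = 0.00883). In simulation that fit recovered 123 of 200 with 40 false calls. The simulated libraries held no effect shared by equal replicate numbers, so these counts do not measure its error in the real libraries. Centred on their group means, the libraries numbered 1 correlated at 0.784 and those numbered 2 at 0.638, and labeled replicate 3, which has no partner, correlated at 0.482 with unlabeled replicate 2. With 2 unlabeled libraries their deviations mirror each other, so these values are not independent and do not establish a pairing. With the block the estimates changed sign for *Ddr1* (-0.01), *Insr* (0.02) and *Pdgfrb* (-0.02). In the same fit, 3 of 25 other receptors were higher and 1 lower at an adjusted p below 0.05 in edgeR. Of 16 ligands 4 were higher and 3 lower, of 23 adaptors 0 and 2, and of 16 negative regulators 2 and 3. With each library left out in turn, the estimate ran from -0.42 to 0.95 for *Axl* (below 0 without labeled replicate 2 or unlabeled replicate 1), from -0.60 to 0.50 for *Insr* (above 0 without labeled replicate 2 or 3 or unlabeled replicate 1) and from -0.12 to 0.61 for *Pdgfrb* (below 0 without labeled replicate 3 or unlabeled replicate 1). Across the same fits the estimate ran from 0.01 to 0.54 for *Ddr1*, from -0.38 to -0.07 for *Fgfr1* and from -0.64 to -0.30 for *Ddr2*. The sign did not change for these receptors, and the value of 0.01 for *Ddr1* came without labeled replicate 3. A lone unlabeled library is assumed to vary like the labeled libraries.

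Receptors whose labeled libraries lay below both unlabeled ones numbered 3 with TMM factors (11.1% of all genes) and 5 in deposited CPM (12.1%), alternatives chosen after seeing the data. They numbered 4 without labeled replicate 2 (17.5%) or 3 (16.1%) and 5 without labeled replicate 1 (26.2%). *Met* and *Insr* are limited by depth.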
